A study of Mus musculus with 6 samples.

Results

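Laminins, nidogens and perlecan were followed here as 9 genes of the deposited table: Lama2, Lama4 and Lama5 for laminin alpha chains, Lamb1 and Lamb2 for beta chains, Lamc1 for a gamma chain, Nid1 and Nid2 for the nidogens, and Hspg2 for perlecan. They were found by gene symbol among 54532 genes, and all 9 were present. Their symbols had been selected with the difference between the groups already known, so the values and calls of that comparison describe these genes and are not evidence about them. RNA was sequenced from MC3T3-E1, a mouse pre-osteoblast cell line that lays down and mineralizes a bone-like matrix, after 3 days in osteogenic medium alone (control, 3 samples) or in osteogenic medium with 0.2 mM metformin, a biguanide drug that lowers blood glucose (metformin, 3 samples). Both groups thus shared the osteogenic medium, and the study asked which transcripts differ when metformin is added to it. All samples come from a single cell line. The sample labels give neither the dose nor the duration, which come from the study's text. The study's text calls the replicates biological and does not say what separated them, so p-values measure the spread between these samples.

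A laminin is a cross-shaped trimer of an alpha, a beta and a gamma chain, and laminins polymerize on the cell surface into the first sheet of a basement membrane. The alpha chain carries the sites for receptors such as integrins and dystroglycan, nidogens bind the gamma chain and collagen IV, and perlecan, a large heparan sulfate proteoglycan, binds to both networks and holds growth factors. Osteoblasts do not rest on a continuous basement membrane, and these proteins are best known there around blood vessels, marrow fat, muscle and nerve, while perlecan is also a component of cartilage matrix.

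Levels are given as FPKM, reads scaled by gene length and by a size factor of each library, so levels of different genes can be set side by side. Differences between the groups were fitted with limma-trend, a linear model across genes, on log2(FPKM + 1). The 12681 genes that averaged 0.5 FPKM or more were tested, and a gene was called at an adjusted p under 0.05 (Benjamini-Hochberg). A log2 fold change is metformin minus control on that scale, which understates the change of low genes. Of the 9 genes, 7 passed the filter on low values, and Lama2 and Lama5 did not. Those 7 were called higher and 0 were called lower, where 13.2% of all tested genes were called higher and 9.28% lower. Among them, Nid1 passed the filter only through the metformin group, where it was higher. For 7 of the 9 genes the metformin samples all lay above the controls, which held for 23.6% of all tested genes. These counts restate what the genes were selected on, and nothing is read from them. The laminin chains that these cells expressed, Lama4, Lamb1, Lamb2 and Lamc1, had 1.75 to 2.02 times their control FPKM with metformin, Nid2 had 1.64 times and Hspg2 2.98 times.

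Of the 9 genes, 6 had an entry in the promoter table of RefSeq (GRCm38.p6), which covers the 250 bases before each annotated start. Promoters are shown for perlecan, Lamb1 and Lama5. Among the tested genes of the 9, perlecan had the largest log2 fold change. Lamb1 was the beta chain whose promoter held GC boxes, and Lama5 was a chain that was barely detected. Capitals mark GC boxes, GGGCGG on either strand, a sequence that Sp1-type factors bind. Each run reads 5′ to 3′ on the strand of the gene and ends at the last base before the gene start in the deposited table. Hspg2 is read at chr4:137468553-137468768 (plus strand), Lamb1 at chr12:31265043-31265233 (plus strand) and Lama5 at chr2:180225860-180226109 (minus strand).
Hspg2: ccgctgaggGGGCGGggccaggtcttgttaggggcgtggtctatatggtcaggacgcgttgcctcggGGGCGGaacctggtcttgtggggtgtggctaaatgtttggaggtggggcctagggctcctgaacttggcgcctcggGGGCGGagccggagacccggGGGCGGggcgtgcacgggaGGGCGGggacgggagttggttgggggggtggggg
Lamb1: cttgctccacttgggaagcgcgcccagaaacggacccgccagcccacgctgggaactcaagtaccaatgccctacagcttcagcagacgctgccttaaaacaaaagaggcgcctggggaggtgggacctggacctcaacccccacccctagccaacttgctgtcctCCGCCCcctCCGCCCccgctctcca
Lama5: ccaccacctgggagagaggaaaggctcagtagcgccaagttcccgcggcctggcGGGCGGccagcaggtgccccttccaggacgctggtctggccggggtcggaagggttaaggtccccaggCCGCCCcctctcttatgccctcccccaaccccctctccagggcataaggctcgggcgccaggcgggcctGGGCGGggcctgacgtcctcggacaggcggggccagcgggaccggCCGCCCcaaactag
The perlecan promoter held 5 GC boxes, at 241 to 68 bases before the RefSeq start. The Lama5 promoter held 4, at 196 to 14 bases before it, and the Lamb1 promoter held 2, at 84 and 75 bases before it. Over the whole 250 bases GC content was 70.0% for Hspg2, 72.4% for Lama5 and 62.0% for Lamb1, beside a median of 52.4% for all promoters. A GC box was found in 32.7% of all 32851 promoters of that length, and at least 4 of them in 4.09%. Nid1 held 1 GC box, and Lamb2 and Lama2 held 0 in this window. For Lama2 the window, chr10:27616943-27617192 (minus strand), lies inside the gene of the deposited table, which starts at 27619758. Its count therefore does not describe the bases before that start. The CCAAT box (CCAAT, either strand, in 33.9% of all promoters) was found once each in Lamb1 and Nid1, while TATAAA (12.4% of all promoters) and the AP-1 motif TGANTCA (6.75%) had 0 matches in the 6 promoters. The well expressed Hspg2 and the barely detected Lama5 both carried several GC boxes.

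**Figure D1:**
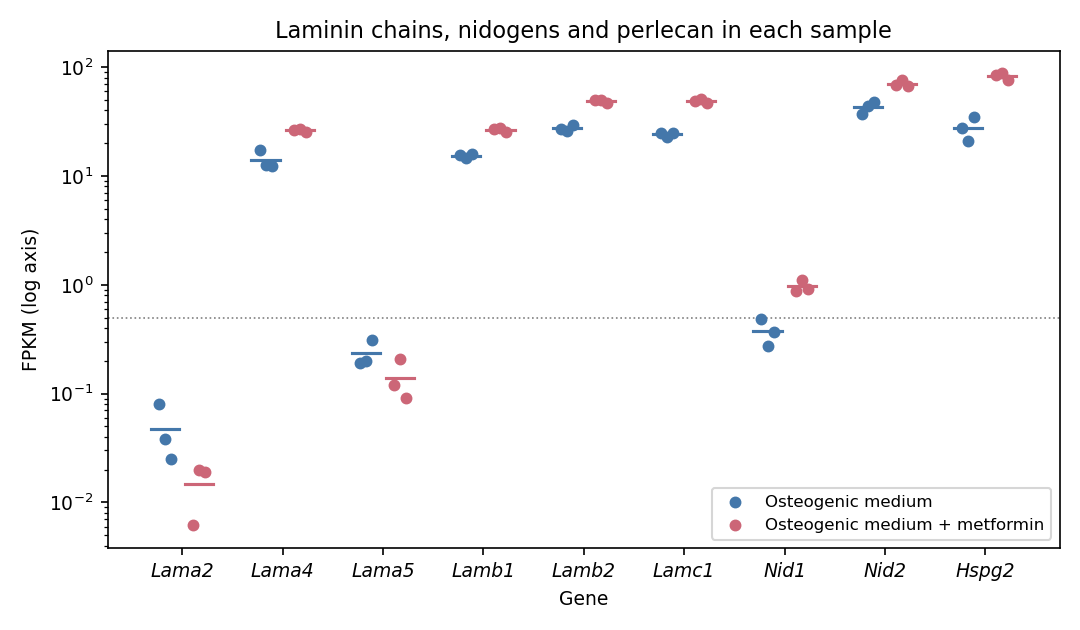
FPKM of each of the 9 genes in every sample, on a logarithmic axis, with points for samples, bars for group means and a dotted line at the 0.5 FPKM filter. The metformin samples lie above the controls for 7 genes, while Lama2 and Lama5 lie under the filter in both groups.

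Among the alpha chains, Lama4 was the one that these cells expressed. Its product is a short alpha chain of vessel, fat and nerve basement membranes. Lama4 (chr10:38965515-39110188, plus strand) had 17.3, 12.7 and 12.4 FPKM in the 3 controls and 26.7, 27.1 and 25.3 FPKM with metformin. The groups did not overlap, and control replicate 1 lay well above the other controls. The mean rose from 14.1 ± 2.71 to 26.4 ± 0.94 FPKM (SD, n = 3). The ratio of the means was 1.87 and the log2 fold change was 0.87 ± 0.13 (SE). Without control replicate 1 the log2 fold change was 1.01.

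Lama2 and Lama5 were close to the limit of detection. Lama2 (chr10:26980036-27619758, minus strand) encodes the main alpha chain of the muscle fibre sheath and of peripheral nerve, where its loss causes a congenital muscular dystrophy. It had 24, 13 and 8 reads in the controls and 2, 7 and 6 reads with metformin. In FPKM these were 0.0804, 0.0379 and 0.0249 against 0.00617, 0.0197 and 0.0189, so every metformin sample lay below every control, with a ratio of group means of 0.312. Lama5 (chr2:180176373-180225859, minus strand) encodes the most widespread alpha chain of adult epithelia and endothelia. It had 40, 48 and 70 reads in the controls and 27, 52 and 20 reads with metformin, or 0.192, 0.201 and 0.313 FPKM against 0.119, 0.210 and 0.0902 FPKM. These ranges overlapped. In a fit with no filter on low values, neither gene was called, with log2 fold changes of -0.046 for Lama2 and -0.12 for Lama5.

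Both beta chains were well expressed, and Lamb2 was the higher of the pair in every sample. Lamb1 encodes the beta chain of early and most widespread laminins. Lamb1 (chr12:31265234-31329644, plus strand) had 15.5, 14.5 and 15.8 FPKM in the controls and 27.0, 27.4 and 25.4 FPKM with metformin. Its mean rose from 15.2 ± 0.68 to 26.6 ± 1.04 FPKM (SD, n = 3), which made a ratio of 1.75 and a log2 difference of 0.77 ± 0.08 (SE). Lamb2 encodes the beta chain known from the neuromuscular junction and the kidney filter. Lamb2 (chr9:108479736-108490530, plus strand) had 26.7, 25.6 and 29.5 FPKM in the controls and 49.4, 50.1 and 46.5 FPKM with metformin. Its mean rose from 27.3 ± 2.02 to 48.7 ± 1.90 FPKM. The ratio of the means was 1.78 and the log2 fold change was 0.81 ± 0.09 (SE). For both genes the lowest metformin sample stood far above the highest control relative to the spread within either group.

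Lamc1, the gamma chain that most laminins share, gave the largest log2 fold change among the laminin chains tested. Lamc1 (chr1:153218922-153332786, minus strand) had 25.0, 23.0 and 24.7 FPKM in the controls and 49.1, 50.8 and 46.6 FPKM with metformin. All metformin samples were above all controls. The mean rose from 24.2 ± 1.09 to 48.8 ± 2.10 FPKM (SD, n = 3), which made a ratio of 2.02 and a log2 difference of 0.98 ± 0.08 (SE).

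Nid2 was the abundant nidogen and Nid1 was at the edge of detection. Nid2 (chr14:19751265-19811787, plus strand) had 37.2, 43.5 and 47.6 FPKM in the controls and 69.0, 75.4 and 66.5 FPKM with metformin. The mean rose from 42.8 ± 5.20 to 70.3 ± 4.57 FPKM (SD, n = 3). The ratio of the means was 1.64 and the log2 fold change was 0.71 ± 0.11 (SE). The groups did not overlap, and control replicate 1 was the lowest. Nid2 shares sequence with Rtraf, a protein-coding gene on the opposite strand that overlaps it, and whether reads were counted by strand is not given in the sources used here, so its value is uncertain to that extent.

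Nid1 (chr13:13437551-13512269, plus strand), the nidogen first described, had 0.481, 0.275 and 0.366 FPKM in the controls and 0.871, 1.12 and 0.917 FPKM with metformin. These values came from 61, 40 and 50 reads against 120, 169 and 124 reads. The control mean of 0.374 ± 0.103 FPKM (SD, n = 3) lay under the filter and the metformin mean of 0.968 ± 0.131 FPKM above it, so the gene was tested only through the group where it was higher. The ratio of the means was 2.59, while the log2 fold change with the pseudocount of 1 was 0.52 (standard error 0.11). Its call was lost in 6 of 13 alternative fits, without each of the metformin replicates and without control replicate 2 among them. Nid1 also overlaps the antisense gene Gm48682 and has a near-identical transcript in Gm2399.

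Perlecan had the largest log2 fold change among the 7 tested genes. Hspg2 (chr4:137468769-137570630, plus strand) had 27.7, 21.1 and 34.5 FPKM in the controls and 84.6, 87.6 and 76.2 FPKM with metformin. The controls differed among themselves by more than for any laminin chain tested, and still the lowest metformin sample was above the highest control. The mean rose from 27.8 ± 6.72 to 82.8 ± 5.90 FPKM (SD, n = 3), which made a ratio of 2.98 and a log2 difference of 1.57 ± 0.18 (SE). In reads this was 23263 over the controls and 72587 over the metformin samples. As a share of all recovered reads perlecan went from 0.0405% ± 0.0106 to 0.118% ± 0.00696, and the 9 genes together went from 0.134% ± 0.0156 to 0.283% ± 0.0121.

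**Figure D2:**
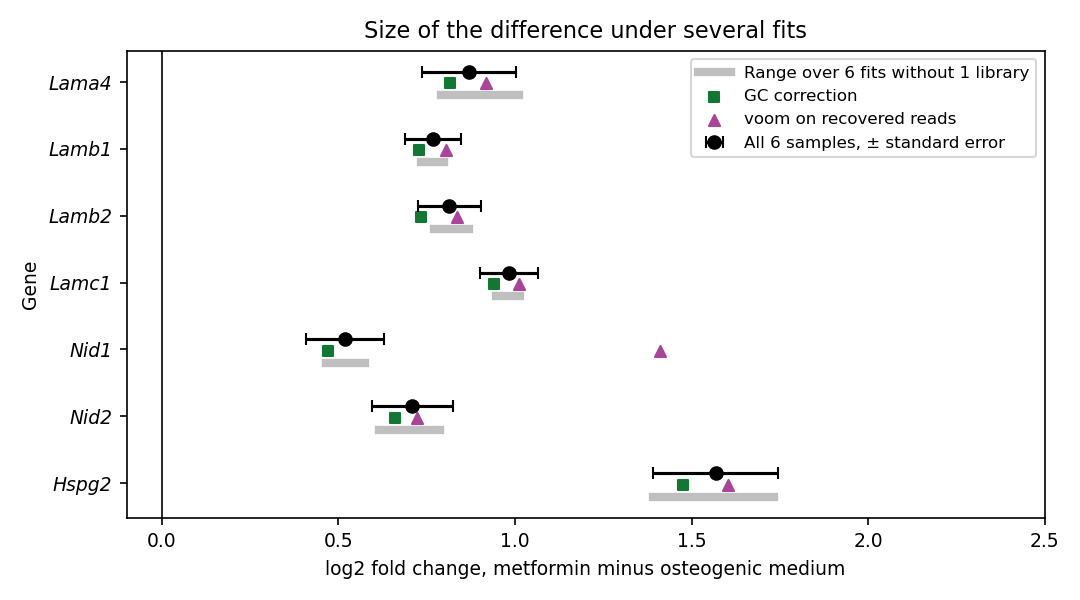
Log2 fold change (metformin minus control) of the 7 tested genes with all 6 samples (black points, error bars of 1 standard error), with the GC correction (green squares), with voom on recovered reads (purple triangles), and as grey bars the range when 1 library at a time was left out. Hspg2 has the highest value, 1.57, and the voom value of Nid1, 1.41, lies far to the right of its other values.

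The order of levels shifted at its top. In the controls it ran from Nid2 through Hspg2, Lamb2, Lamc1, Lamb1, Lama4, Nid1 and Lama5 to Lama2. The ranges of Hspg2 and Lamb2, of Lamb1 and Lama4, and of Nid1 and Lama5 overlapped. Within the same library Nid1 still lay above Lama5 in every control, while the order of the other overlapping neighbours changed between controls. With metformin Hspg2 came first and Nid2 second, with no overlap between them, followed by Lamc1, Lamb2, Lamb1, Lama4, Nid1, Lama5 and Lama2. There the ranges of Lamc1 and Lamb2 and those of Lamb1 and Lama4 overlapped, although Lamb1 lay above Lama4 in every metformin sample. The ratio of Hspg2 to Nid2 was 0.651 ± 0.145 in the controls and 1.18 ± 0.042 with metformin (SD, n = 3), without overlap.

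The other chains reported here, Lama1, Lama3, Lamb3 and Lamc3, were near the limit of detection in both groups, all under the filter. Lama1, Lama3 and Lamb3 had 12, 9 and 34 reads over the 3 controls and 27, 12 and 28 reads over the 3 metformin samples. Lamc3 had 2 reads in each group.

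By class of chain, the summed level of all 5 alpha genes in the genome went from 14.5 ± 2.71 to 26.6 ± 1.02 FPKM, that of the 3 beta genes from 42.6 ± 2.63 to 75.4 ± 2.93 FPKM, and that of the gamma genes Lamc1 and Lamc3 from 24.2 ± 1.09 to 48.8 ± 2.11 FPKM (SD, n = 3). The ratios of the means were 1.84, 1.77 and 2.02. Within a class the make-up moved little. Lamb1 made up 35.8% ± 0.97 of the beta sum in the controls and 35.3% ± 0.013 with metformin, with overlap, and the gamma sum was almost entirely Lamc1. Lama4 made up 97.7% ± 0.60 of the alpha sum in the controls and 99.2% ± 0.34 with metformin. The share of Lama4 was above every control in all metformin samples, and the shares of Lama5, from 1.70% to 0.521%, and of Lama2, from 0.315% to 0.0562%, were below. Lama4 made up nearly all of the alpha sum, so the other shares fall when Lama4 is higher. The FPKM of Lama5 itself overlapped between the groups, and Lama2 had only 45 reads over the controls and 15 over the metformin samples.

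Between classes, the alpha sum per gamma sum was 0.703, 0.564 and 0.519 in the controls and 0.547, 0.540 and 0.546 with metformin, and these ranges overlapped. The beta sum per gamma sum was 1.76 ± 0.075 in the controls and 1.54 ± 0.017 with metformin, and the nidogen sum per gamma sum was 1.78 ± 0.24 and 1.46 ± 0.042. Both ratios were lower in every metformin sample than in every control. For the nidogens the groups nearly touched, at 1.508 in control replicate 1 and 1.505 in metformin replicate 2. Perlecan per gamma sum was higher in every metformin sample, at 1.69 ± 0.052 against 1.14 ± 0.24. Transcripts of perlecan therefore differed by more than those of the gamma chains, and transcripts of the beta chains by less. Transcripts of the nidogens differed by less in their means, with groups that barely separated.

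**Figure D3:**
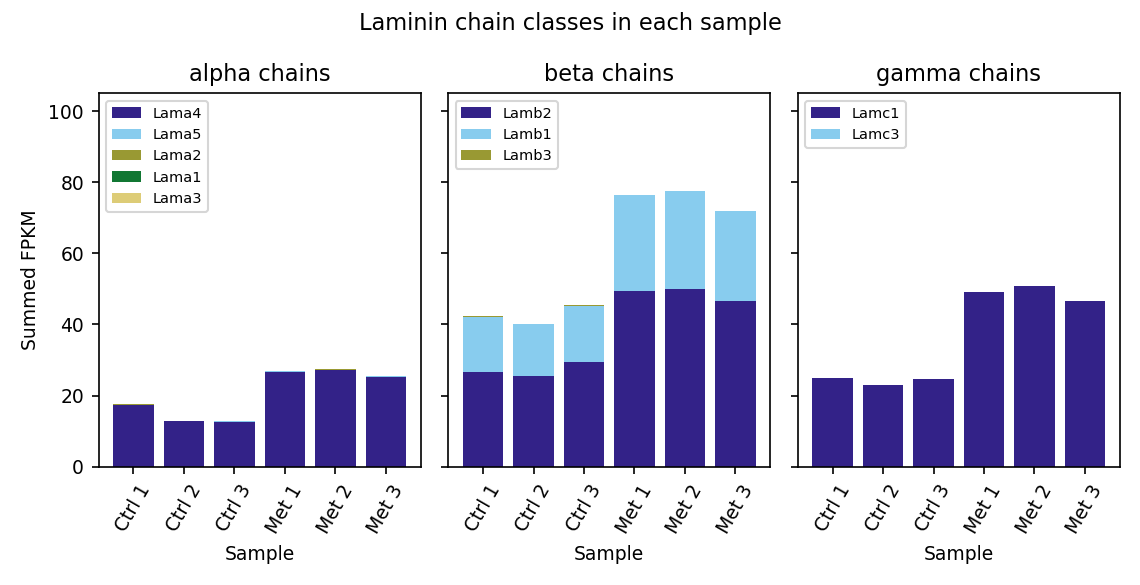
Summed FPKM of the alpha, beta and gamma genes of laminin in each sample (Ctrl, osteogenic medium alone, and Met, metformin), as stacked bars from 0 with each gene as a colour. Lama4 and Lamc1 fill almost all of the alpha and gamma bars, and the beta class is shared by Lamb1 and Lamb2 at about the same proportions in both groups.

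Several facts of the libraries touch these values. Recovered totals were 18399861 to 20652437 reads in the controls and 19256672 to 22111790 with metformin, and the mitochondrially encoded share of reads was 6.36% to 10.01% against 2.72% to 3.16%. Metformin samples had correlations of 0.992 with each other across genes, control replicates 2 and 3 had 0.988, and control replicate 1 had 0.960 and 0.952 with them. The deviation of control replicate 1 followed GC content, with a Spearman correlation of -0.668 across genes. Its median deviation from the other controls on log2(FPKM + 1) went from 0.41 in the decile of tested genes with the lowest GC content to -0.56 in the highest. For the genes described here it was 0.43 for Lama4, 0.17 for Nid1, 0.07 for Lamc1, 0.03 for Lamb1, 0.04 for Hspg2, -0.04 for Lamb2 and -0.28 for Nid2. Over the 6 fits that each left out a library, the log2 fold change stayed between 0.79 and 1.01 for Lama4, 0.73 and 0.80 for Lamb1, 0.77 and 0.87 for Lamb2, 0.95 and 1.01 for Lamc1, 0.61 and 0.79 for Nid2, and 1.39 and 1.73 for Hspg2. With a correction for GC content the values were 0.82, 0.73, 0.73, 0.94, 0.66 and 1.48 in the same order.

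**Figure D4:**
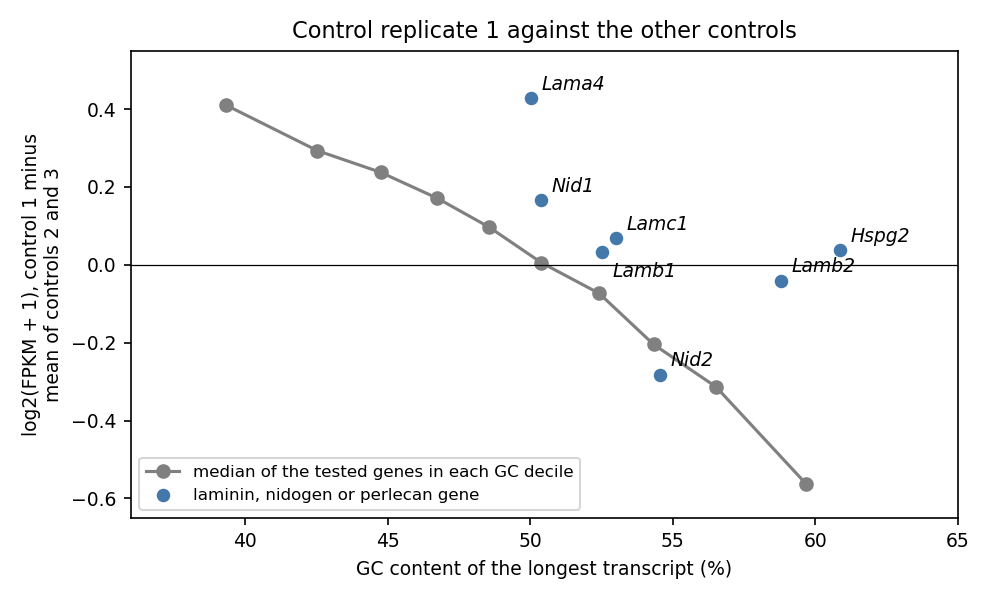
Deviation of control replicate 1 from the mean of control replicates 2 and 3 on log2(FPKM + 1), against the GC content (%) of the longest transcript. Grey points are medians of deciles of the tested genes by GC content, falling from 0.41 to -0.56, and blue points are the 7 tested genes, of which Lama4 lies highest at 0.43 and Nid2 lowest at -0.28.

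The cell type given in the labels was checked against its markers, and markers of other cell types were near 0 with few exceptions. All 8 osteoblast markers were detected, and their summed level was 10004 to 11752 FPKM in the controls and 6793 to 7184 FPKM with metformin, where Col1a1 and Col1a2 were called higher and Ibsp and Spp1 lower. The 5 endothelial markers summed to at most 0.156 FPKM in any sample, with Cdh5, Kdr and Tek at no more than 3 reads. Sox10 of Schwann cells, Myod1, Myog and Ckm of muscle, all 5 epithelial markers, Adipoq and Cidec of fat cells and Adgre1 of macrophages were likewise at no more than 3 reads in every sample. Of the other markers, S100b, Des and Cd68 were tested, and Cd68 was called lower. S100b of the Schwann list had 6.38 ± 2.09 FPKM in the controls and 6.75 ± 0.479 FPKM with metformin (SD, n = 3). The osteoblast marker Alpl had a lower mean level than S100b in both groups, at 3.16 ± 0.596 and 2.71 ± 0.286 FPKM. Bglap had 8.04 ± 5.23 and 5.37 ± 0.833 FPKM. For Alpl and Bglap the groups overlapped and neither gene was called (adjusted p = 0.412 and 0.735 by limma-trend). Runx2 and Sp7 were not called either. Des had mean levels of 1.55 and 2.27 FPKM, and Cd68 of 2.04 and 1.17 FPKM. The samples are bulk RNA, in which fewer cells of a type and less RNA per cell cannot be told apart.

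The 8 lists of genes that work with laminins put the 9 genes in context, with 56 of their 93 genes tested. Of those 56, 16 were called higher and 2 lower, where 13.2% and 9.28% of all tested genes were. The median log2 fold change was 0.20, beside 0.0053 over all tested genes. These lists were chosen with earlier results of these data known.

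**Figure D5:**
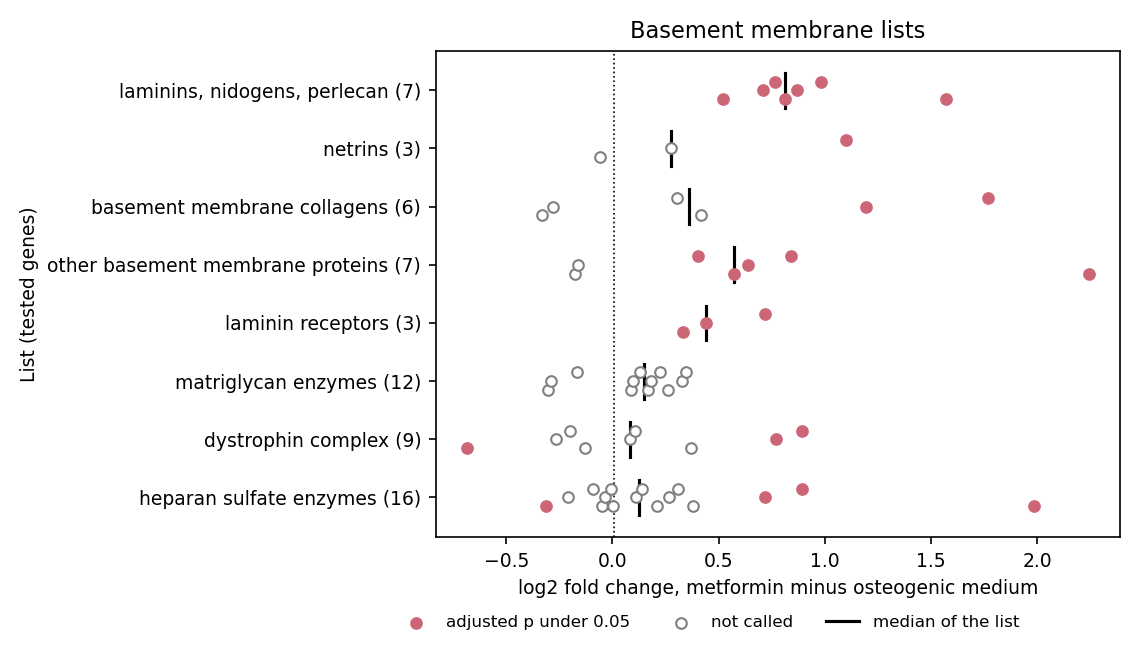
Log2 fold change (metformin minus control) of each tested gene of the 7 lists with tested genes and of the laminin, nidogen and perlecan genes, 1 point a gene, filled where called. Black bars are list medians, the dotted line is the median of all tested genes, and Npnt and Hs6st2 lie farthest to the right.

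Of the collagens that lie beside laminin, 2 of 6 tested were called higher and 0 lower, against 13.2% and 9.28% of all tested genes. Their median log2 fold change was 0.36. The abundant collagen IV pair was not called: Col4a1 had 254 ± 54.6 FPKM in the controls and 309 ± 16.7 FPKM with metformin (SD, n = 3), and Col4a2 had 175 ± 27.4 and 232 ± 11.9 FPKM, with adjusted p = 0.239 and 0.0632 by limma-trend. The rarer chains Col4a5 and Col4a6 rose. Col4a5 had 13.7, 12.4 and 11.6 FPKM in the controls and 45.0, 48.2 and 42.0 FPKM with metformin, and its log2 fold change was 1.77 ± 0.10 (SE; adjusted p = 0.00011 by limma-trend). Col4a6 went from 5.09 ± 0.223 to 13.0 ± 0.808 FPKM, or 1.19 on the log2 scale (adjusted p = 0.00021). Col4a5 and Col4a6 form a trimer of their own, distinct from that of Col4a1 and Col4a2. Col15a1 and Col18a1 were at -0.33 and -0.28 and were not called by limma-trend with all samples (adjusted p = 0.0531 and 0.459). Both were called lower with the GC correction and without control replicate 1, where they were at -0.41 and -0.56. Col15a1 was also called lower by voom. Col4a2 was called higher by voom and without control replicate 1 or 3, where it was at 0.32 and 0.54.

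Of 7 tested other proteins of basement membranes, 5 were called higher and 0 lower, against 13.2% and 9.28% of all tested genes. Their median log2 fold change was 0.57. Npnt, nephronectin, an integrin ligand of basement membranes, had 41.3, 31.3 and 28.5 FPKM in the controls and 162, 167 and 155 FPKM with metformin, and no other tested gene of the lists had a larger log2 fold change than its 2.24 ± 0.14 (SE; adjusted p = 0.000175). Fbln2, a fibulin that binds nidogen and perlecan, went from 39.5 ± 3.15 to 71.3 ± 2.89 FPKM (0.84, adjusted p = 0.00133). Tinagl1, a matricellular protein, had 0.64, Agrn, the heparan sulfate proteoglycan agrin that links laminin to dystroglycan, had 0.57, and Pxdn, the peroxidase that crosslinks collagen IV, had 0.40, the last of these outside the naming rule and chosen after its value was seen. The calls of Tinagl1, Agrn and Pxdn held in 10, 9 and 8 of 13 alternative fits. All of these calls were lost when any single metformin replicate was left out, those of Agrn and Pxdn also without control replicate 2, and that of Pxdn with the replicate number as a block. The log2 fold changes over the fits that left out a library were at least 0.52, 0.51 and 0.36 in the same order. Sparc, the most highly expressed of the list, was not called, with 1567 and 1395 FPKM (-0.16, adjusted p = 0.340).

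Netrins share the short-arm domains of laminins. Of 3 tested, 1 was called higher and 0 lower, against 13.2% and 9.28% of all tested genes. The called gene, Ntn1, had 6.79, 8.22 and 9.77 FPKM in the controls and 18.5, 19.8 and 17.8 FPKM with metformin. Its log2 fold change was 1.10 ± 0.13 (SE, adjusted p = 0.0017 by limma-trend). Ntng2, the most highly expressed among the netrins in the controls, was not called at -0.06, and without control replicate 1 it was called lower at -0.27.

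Of the laminin receptors, 3 of 7 were tested and all 3 were called higher, against 13.2% of all tested genes. Their median log2 fold change was 0.44. Itgb1, the beta chain of laminin-binding integrins, had 251, 193 and 164 FPKM in the controls and 326, 338 and 324 FPKM with metformin (0.72, adjusted p = 0.0203). Dag1, dystroglycan, went from 49.7 ± 2.13 to 67.7 ± 3.84 FPKM (0.44, adjusted p = 0.0133), and Itga3, an integrin alpha chain that binds laminin, from 13.4 ± 1.30 to 17.1 ± 0.707 FPKM (0.33, adjusted p = 0.0480). The calls of Itgb1, Dag1 and Itga3 held in 8, 10 and 4 of 13 alternative fits. Those of Itgb1 and Itga3 were lost with no filter on low values, when any single metformin replicate was left out and without control replicate 2. Itga3 also lost its call with total-read scaling, the GC correction, and the replicate block with and without that correction, and Dag1 with the replicate block and without metformin replicate 1 or 2. Over the fits that left out a library, the log2 fold change was at least 0.58 for Itgb1, 0.40 for Dag1 and 0.28 for Itga3.

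Matriglycan is the sugar on dystroglycan that laminins bind. Enzymes that build it gave 0 calls among 12 tested genes by limma-trend, against 13.2% called higher and 9.28% lower of all tested genes. Voom on recovered reads also gave 0 calls. An unadjusted p under 0.05 was found for 5 of these genes by limma-trend and for 4 by voom. The share of all tested genes under that unadjusted threshold was not computed, so nothing is read from these counts for the 12 enzymes. Their median log2 fold change was 0.15, from -0.30 for Pomk to 0.34 for Pomt1. B4gat1, the most highly expressed of them, had 41.9 ± 4.26 FPKM in the controls and 34.0 ± 0.185 FPKM with metformin (-0.29, adjusted p = 0.0799). B4gat1, Pomk and Pomt1 were called in 3, 4 and 1 of 13 alternative fits, each with the GC correction among them. Without control replicate 1 B4gat1 and Pomk were called lower, at -0.37 and -0.28.

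Behind dystroglycan, the dystrophin complex had 2 of 9 tested genes called higher and 1 lower, against 13.2% and 9.28% of all tested genes, with a median log2 fold change of 0.084. Sntb1, a syntrophin, rose by 0.89 (adjusted p = 0.00162), Sgcd, a sarcoglycan, by 0.77 (adjusted p = 0.0158, a call lost when any single metformin replicate was left out, at 0.74 to 0.78), and Dtna, a dystrobrevin, fell by 0.69 (adjusted p = 0.00447). Sgcb, another sarcoglycan, was not called, with 29.1 ± 3.63 and 31.3 ± 1.36 FPKM (0.11, adjusted p = 0.536).

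Perlecan and agrin carry heparan sulfate, and among 16 tested enzymes that build or edit it 3 were called higher and 1 lower, against 13.2% and 9.28% of all tested genes. Their median log2 fold change was 0.12. Hs6st2, which adds sulfate to heparan sulfate, had 2.90, 2.40 and 1.92 FPKM in the controls and 11.8, 13.4 and 12.0 FPKM with metformin (1.99 ± 0.12 SE on the log2 scale, adjusted p = 0.000163). Sulf2, an extracellular sulfatase that removes sulfate of the same kind, went from 58.2 ± 2.11 to 109 ± 5.54 FPKM (0.89, adjusted p = 0.000692). Hs6st1 went from 8.98 ± 2.48 to 15.1 ± 0.591 FPKM (0.72, adjusted p = 0.0328), and Ext1, a polymerase of the chain, fell from 27.1 ± 0.865 to 21.6 ± 0.629 FPKM (-0.31, adjusted p = 0.0287). The calls of Hs6st1 and Ext1 held in 8 and 6 of 13 alternative fits. Both were lost when any single metformin replicate or control replicate 2 was left out, at 0.69 to 0.75 for Hs6st1 and -0.34 to -0.29 for Ext1. Hs6st1 also lost its call with no filter on low values, and Ext1 with the block, with or without the GC correction, and without control replicate 3. Sulf2 overlaps Ncoa3 and Hs6st1 overlaps Gm37335, which shares sequence with it.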

How the data were processed

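The authors sequenced TruSeq RNA libraries of 6 samples and deposited 1 table of gene lengths and normalized values without stating their unit. Multiplied by gene length, 100% of the values above 0 were whole multiples (tolerance 0.01) of a constant of each sample. The deposited values were therefore taken as FPKM, and the reads behind them were recovered. The library sizes behind these values were proportional to median-of-ratios size factors in all 6 samples, and not to the recovered totals. Such a factor is the median over genes of a sample's reads relative to the gene's geometric mean. At these depths 3 reads make up 1.36e-05% to 1.63e-05% of a library (counting error only). The submitters' processing notes name Bowtie 0.12.2, mm8 and mm9, yet of the 54532 identifiers 53499 have the coordinates of GENCODE M21 (GRCm38). The counter is not given in the sources used here.

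Groups came from the sample labels. The design had foreseen FPKM, which count tests do not suit, so limma 3.58.1 (R 4.3.3) was fitted to log2(FPKM + 1) over genes with a mean of at least 0.5 FPKM, with all 6 samples, no covariate and Benjamini-Hochberg adjustment over all tested genes. Genes named beside the 9 were the other laminin chains and, in each list, called genes with the largest changes, at most 4 each way, and the most highly expressed gene if not called. Col4a2, Col15a1, Col18a1, Pxdn, Pomk, Pomt1, Sgcb and the genes whose sign changed were named outside this rule, after their values were seen. The members and lists were chosen with earlier results of these data known. The alternatives used no filter, a pseudocount of 0.1, total recovered reads as the scale, voom on recovered reads, a replicate block, a GC correction (spline, 5 degrees of freedom) and leaving out each replicate. The fitting code was tested on simulated data. Overlaps and near-identical transcripts (95% identity over at least 200 bases, blastn 2.17.0) used GENCODE M21. Some genes of the lists are not reported here and were left out of the lists and sums. Figures were drawn with matplotlib 3.10.9.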

Additional observations from a re-analysis of the deposited data

How the results depend on the processing

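Of 91 pairs of a laminin, nidogen or perlecan gene and an alternative, the call was lost in 6, all of them Nid1, so that 6 or 7 of these genes were called higher and 0 lower in every fit. Genes called higher were 1670 over all tested genes and 938 to 2969 over the fits that each left out a replicate, and genes called lower were 1177 and 495 to 2590, with both maxima without control replicate 1. Genes called lower were 698 with the replicate block, 2433 with the GC correction and 1888 with both. Of the lists, 16 genes were called higher, 8 to 26 over the fits that left out a replicate, and 2 were called lower, 1 with the replicate block, 7 with the GC correction, 4 with both and 1 to 10 over the fits that left out a replicate. With the replicate block 1161 genes were higher. Same-numbered samples did not deviate together across genes (correlations of -0.053, 0.00027 and -0.055). These values show no sign of pairing by number and cannot exclude it, because the deviations of the controls were also correlated with GC content. The GC correction moved the median log2 fold change of all tested genes by -0.0542 and scaling by total reads by -0.0246. The causes were not tested.

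The sign changed for 5 of 63 named genes, none of them called with all 6 samples. Over the fits that left out a replicate Ntng2 ranged from -0.27 to 0.076, Xylt2 from -0.069 to 0.22, B3gat3 from -0.33 to 0.12, Ndst1 from -0.12 to 0.11 and Glce from -0.061 to 0.11. Glce was also -0.021 when scaled by total reads, and -0.046 with the GC correction, alone or beside the block. Depth limits Lama2, Lama5, Nid1 and the other laminin chains, whose values rest on few reads.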
